A study of Danio rerio with 28 samples.

Results

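The core circadian oscillator was followed at the RNA level in whole zebrafish larvae exposed to PCB126, a dioxin-like polychlorinated biphenyl, or to cadmium (Cd), a toxic metal. The 10 genes are clocka, clockb, arntl1a, arntl1b and arntl2 of the positive limb and per1a, per1b, per3, nr1d1 and nr1d2a of the negative limb, taken by symbol from a deposited table of raw counts for 38318 genes. All 10 were listed there, and 9 had enough counts to be tested among 25393 tested genes. The larvae were AB wild type and were kept in E3 medium at 28.5 °C, with exposure from 1 to 5 days after fertilization. Each of 7 groups had 4 libraries: PCB126 at 0.08, 0.4 and 0.8 nM, Cd at 2.4, 12 and 24 ug/L, and control. The same 4 control libraries served both chemicals, and their columns carry the Cd prefix. Whether they were kept beside the PCB126 larvae, which vehicle was used, and the clock time and order of collection are not given in the sources used here, so PCB126 cannot be told apart from its series of samples. The unknown time and order of collection bear on the Cd groups and on every step between doses as well. No label says that replicates were separate cultures or clutches. The p-values therefore rest on the spread among these libraries, which may be technical.

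The animal clock is a transcription feedback loop. Clock and Arntl (also called Bmal) proteins pair and switch on genes through E-box sequences, among them the per and cry genes, whose proteins then block the pair. In a second loop, Nr1d (Rev-erb) repressors and Ror activators compete for the arntl promoters. In zebrafish the loop runs in most tissues, many of its genes are duplicated, and light reaches the cells directly and induces per2 and some cry genes. RNA of each oscillator gene rises and falls over the day, so 1 collection time samples the loop at 1 phase, and in whole larvae fewer cells that carry a transcript and less RNA per cell cannot be told apart.

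Libraries held 11893345 to 20770004 counts. A pair of libraries, Cd 2.4 ug/L replicate 3 and control replicate 4, differed from the other 26 in makeup. Their TMM scaling factors were 0.687 and 0.646, against 0.993 to 1.08 elsewhere, and genes for ribosomal proteins took 12.4% and 12.0% of their counts, against 5.60% to 6.56%. The gene length at the median count was 1922 and 1978 bases in these libraries and 2659 to 2829 bases in the rest. CPM is the count relative to the TMM-scaled library total. Of 9 sets of 3 tissue marker genes, 7 had a summed CPM in both of these libraries above the range of the other 26: skeletal muscle (53669 and 66427, against 22433 to 31555), liver (10208 and 10590, against 3967 to 6613), exocrine pancreas, photoreceptors, lens, blood and pineal. The neuronal set was below the range (721 and 562, against 783 to 933), and the epidermal set was within it (815 and 1257, against 546 to 1707). Counts of called oscillator genes by edgeR below are given for all 28 libraries, and beside them without this pair. Where other results leave out the pair, this is stated. As a check on exposure, cyp1a, the detoxifying enzyme induced by dioxin-like compounds, averaged 518 ± 29.7, 3105 ± 485 and 6553 ± 133 CPM at 0.08, 0.4 and 0.8 nM PCB126, against 43.3 ± 5.50 CPM in control (SD, n = 4 each). The cadmium-responsive metallothionein gene mt2 averaged 12.8 ± 6.34, 6.43 ± 1.15 and 10.2 ± 5.76 CPM at 2.4, 12 and 24 ug/L Cd, against 5.66 ± 2.88 CPM in control, values that overlap.

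On the TPM scale, which corrects for gene length, the negative limb was the more abundant. Over the 26 libraries without the pair, the 5 negative-limb genes together had 333 to 456 TPM (median 420.2), and the 4 detected positive-limb genes 56.7 to 87.3 TPM (median 68.3), a ratio of 4.78 to 7.38. The level order by median TPM was nr1d1 at 170.4, nr1d2a at 119, per1b at 74.0, clockb at 30.2, per3 at 26.9, arntl1a at 25.3, per1a at 20.7, arntl1b at 9.06 and clocka at 2.22. These medians are over the same 26 libraries. There the ranges of nr1d1 and nr1d2a did not overlap, nor did those of per1b and clockb or of arntl1b and clocka. The middle 4 genes, clockb to per1a, could not be placed firmly, since the ranges of neighbours overlapped and clockb exceeded per3 in 21 of 28 libraries and per3 exceeded arntl1a in 17 of 28.

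Genes also differed in how far they varied between libraries. Without the pair, the highest over the lowest CPM was 5.25 for clocka and 2.34 for arntl1b, and it was between 1.22 for per1b and 1.88 for per1a in the other 7 genes. The clocka count was 6 to 250 per library, the thinnest of the 9 genes, while per1b had 1430 to 5902.

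**Figure D1:**
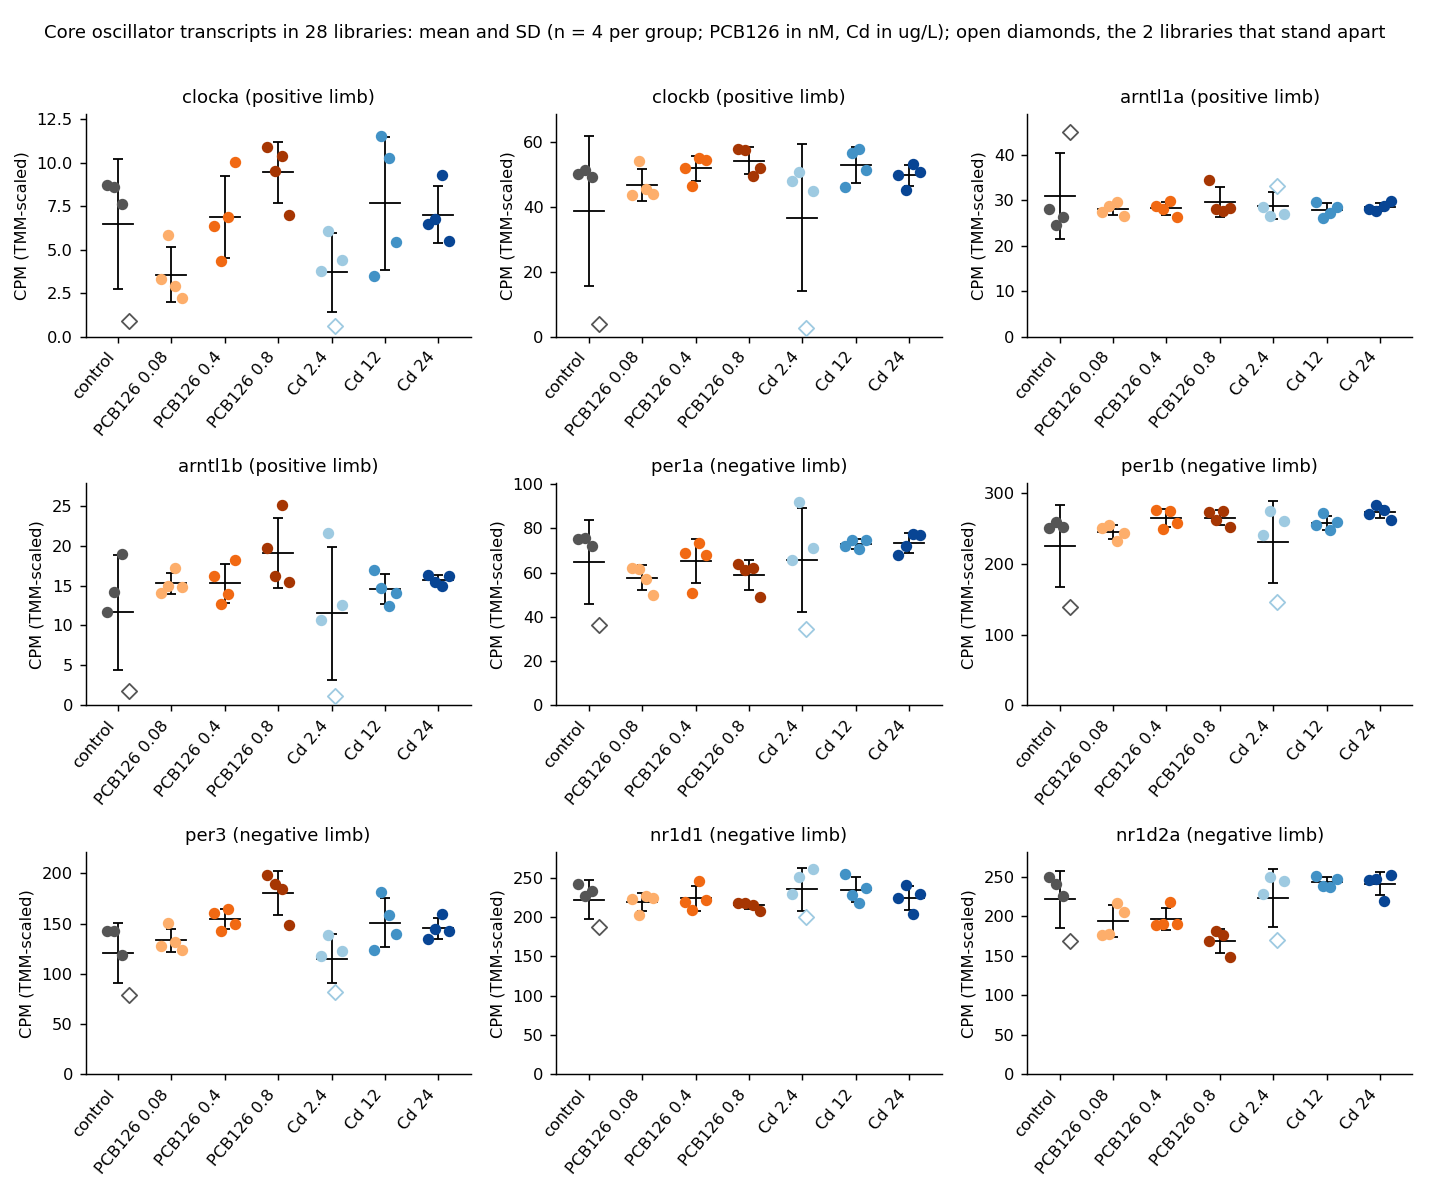
CPM (TMM-scaled, vertical axis starting at 0) of the 9 detected oscillator genes in each library, by group; lines and bars are the mean and SD of 4 libraries. The 2 open diamonds are control replicate 4 and Cd 2.4 ug/L replicate 3, which lie far below the other libraries for clocka, clockb and arntl1b, and nr1d2a is lower in the 3 PCB126 groups than in the 3 Cd groups apart from the diamond.

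In scaled CPM, the pair of libraries had most of its deficit in the positive limb. The Clock paralog genes were nearly lost there: clockb had 2.76 CPM in Cd 2.4 ug/L replicate 3, against 44.9 to 50.7 CPM in the other 3 libraries of that group, and 4.02 CPM in control replicate 4, against 49.1 to 51.3 CPM in the other 3 controls. arntl1b was likewise low, at 1.23 CPM in the Cd library, against 10.7 to 21.5 CPM, and at 1.83 CPM in the control library, against 11.7 to 19.0 CPM. Its paralog arntl1a went the other way in scaled CPM, at 33.0 CPM against 26.5 to 28.5 CPM in Cd 2.4 ug/L and 44.9 CPM against 24.5 to 28.1 CPM in control, but it was lower in TPM, at 15.5 against 23.8 to 25.1 TPM and at 20.5 against 23.2 to 26.7 TPM. The arntl1a to arntl1b ratio in TPM was therefore 40.7 and 37.2 in the 2 libraries, against 1.67 to 4.02 in the other 26. In the negative limb, per1b had 146 CPM in the Cd library, against 241 to 275 CPM, and 139 CPM in the control library, against 252 to 259.8 CPM. In CPM the deficit was smaller for nr1d1, with 199.5 CPM against 229.6 to 261 CPM and 187 CPM against 227 to 242 CPM. In TPM, nr1d1 had 77.5 against 166 to 190 TPM in Cd 2.4 ug/L and 70.5 against 177 to 190 TPM in control. per1b had 21.3 against 65.6 to 77.0 TPM and 19.8 against 73.1 to 76.4 TPM. Summed in TPM, both limbs were low in the pair. The positive limb had 16.9 TPM in the Cd library and 22.5 in the control library, against 56.7 to 87.3 TPM in the other 26. The negative limb had 159.5 and 149 TPM, against 333 to 456 TPM. The negative to positive ratio was 9.45 in the Cd library, against 4.78 to 7.38 in the other 26. In the control library it was 6.63, within that range. The cause of the low values was not tested.

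The pair widened the error of every comparison with control. The spread is estimated over all groups, so the pair also widened the error of comparisons that held neither of its libraries. For clockb the standard error (SE) of the log2 fold change was 0.50 with all 28 libraries and 0.08 to 0.09 without the pair, and for nr1d2a it was 0.12 and 0.07 to 0.08. A count of called genes below is therefore given both ways. Genes are termed called when the adjusted p was below 0.05 in edgeR's quasi-likelihood test with Benjamini-Hochberg adjustment over all tested genes. Overlap of groups was not counted over all tested genes, so no share stands beside a lack of overlap.

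Among the positive-limb genes, clockb (ENSDARG00000003631, chr1:19433004-19466453, GRCz11), which encodes a Clock protein, had nearly the same level in every group outside the pair. It had 57.9, 57.5, 49.4 and 52.1 CPM at PCB126 0.8 nM, against 50.2, 51.3, 49.1 and 4.02 CPM in control. The exposed libraries overlapped the 3 high controls. The log2 fold change was 0.48 ± 0.50 (SE; 95% interval -0.55 to 1.51; adjusted p = 0.665, edgeR), and without the pair 0.11 ± 0.08 (interval -0.06 to 0.29; adjusted p = 0.498). At Cd 24 ug/L it was 0.36 (interval -0.67 to 1.39) with all libraries and -0.01 (interval -0.18 to 0.17) without the pair.

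The other Clock gene, clocka (ENSDARG00000011703, chr20:22067337-22176003), had the widest swings. At PCB126 0.08 nM it had 3.31, 5.83, 2.93 and 2.19 CPM, against 8.74, 8.63, 7.66 and 0.913 CPM in control. All 4 exposed libraries were below the 3 high controls and above the fourth. Its log2 fold change was -0.88 ± 0.51 (SE, adjusted p = 0.618, edgeR), and without the pair -1.22 ± 0.34 (adjusted p = 0.0285). clocka was not called with any 1 of the 8 compared libraries left out, control replicate 4 included (adjusted p 0.268 to 0.796, edgeR). At 0.4 nM it had 6.37, 4.33, 6.86 and 10.04 CPM, and at 0.8 nM 10.9, 9.54, 10.4 and 6.98 CPM, values that overlap the 3 high controls. PCB126 0.8 nM exceeded PCB126 0.08 nM in every library, by 1.40 ± 0.51 on the log2 scale (unadjusted p = 0.0105, adjusted p = 0.271, edgeR), and this difference was called without the pair (1.40 ± 0.32, adjusted p = 0.00593). Cd 2.4 ug/L was low as well, at 3.75, 6.05, 0.613 and 4.40 CPM, and the 3 libraries outside the pair again lay below the 3 high controls (log2 fold change without the pair -0.82 ± 0.36, adjusted p = 0.349, edgeR).

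The level of clocka moved with a property of the library. In 7 of 7 groups, without the pair, the library with the longest gene length at the median count had the most clocka, and in 6 of 7 the library with the shortest had the least. This length was 2659 to 2750 bases at PCB126 0.08 nM and 2677 to 2829 bases at 0.8 nM, against 2791 to 2795 bases in the 3 controls. At Cd 12 ug/L replicates 2 and 3 tied for the longest, at 2797 bases, and replicate 2 had the most clocka. For per3 the same held in 5 and 6 of 7 groups, for per1a in 4 and 5, for clockb in 4 and 4, and for nr1d2a in 2 and 3. In control the order rests on lengths of 2791 to 2795 bases. Of these genes clocka had 6535 bases, per3 11603, per1a 7377, clockb 3682 and nr1d2a 4079. For per1b, with 7782 bases, the same held in 3 and 3 of 7 groups. How many of all tested genes follow the library length in this way was not counted. What part this property has in the clocka, per3 and per1a differences was not tested.

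**Figure D2:**
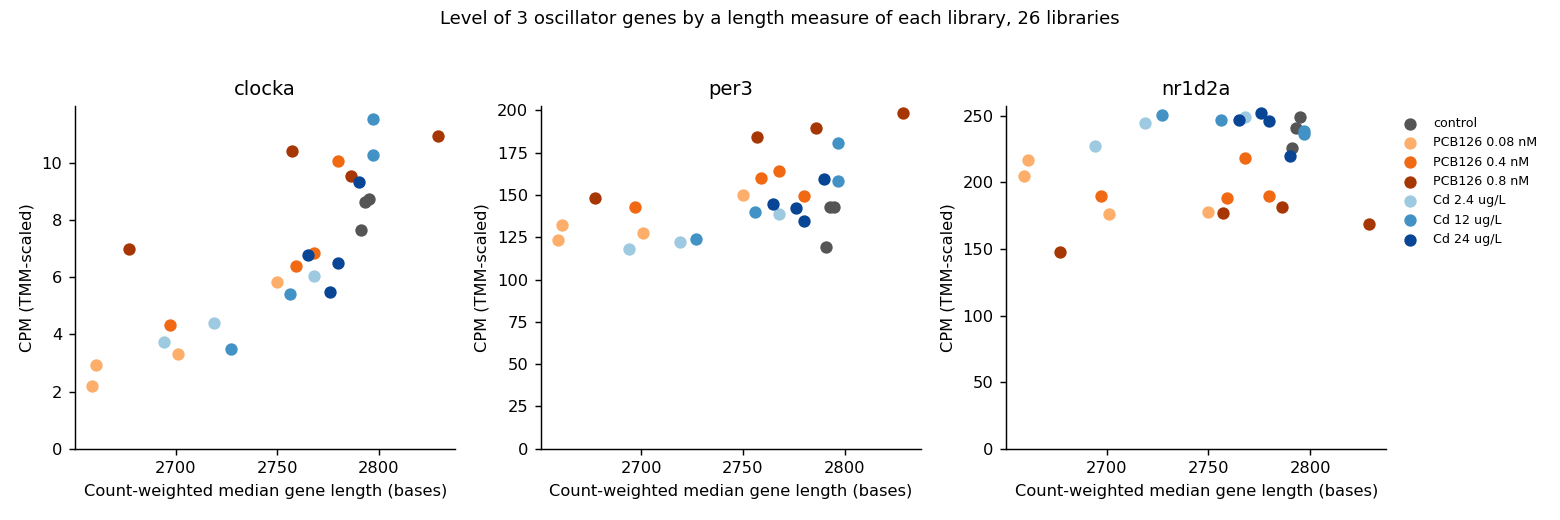
CPM (TMM-scaled, vertical axis from 0) of clocka, per3 and nr1d2a in 26 libraries against the count-weighted median gene length of each library in bases; 1 point per library, coloured by group. clocka is highest in libraries at the right of its panel, while the 12 PCB126 libraries lie below the 11 Cd libraries for nr1d2a at every length.

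arntl1a (ENSDARG00000006791, chr25:17893784-17918810), which encodes a Bmal1 protein, was steady outside the pair. It had 34.5, 27.99, 27.6 and 28.3 CPM at PCB126 0.8 nM, against 28.1, 24.5, 26.2 and 44.9 CPM in control. The log2 fold change was -0.06 ± 0.13 (SE, adjusted p = 0.850, edgeR), and without the pair 0.17 ± 0.07 (adjusted p = 0.165). The sign of this small difference was set by 1 control library.

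arntl1b (ENSDARG00000035732, chr7:66048102-66105828), the second Bmal1 gene, had 19.7, 16.2, 25.0 and 15.4 CPM at PCB126 0.8 nM, against 11.7, 14.2, 19.0 and 1.83 CPM in control, with overlap. Its log2 fold change was 0.70 ± 0.46 (SE, adjusted p = 0.456, edgeR), and without the pair 0.36 ± 0.19 (adjusted p = 0.303). A locus without an Ensembl identifier, described in the deposited table as coding a BMAL1 protein, lies on the alternate contig CHR_ALT_CTG7_1_43 at 66075885-66112519 and held 1894 counts, against 6292 for arntl1b, and it took 9.85% to 41.8% of the sum in a library. Whether it is a copy of arntl1b and holds reads of that gene was not tested. The SD of the sum was below that of arntl1b alone in 4 of 7 groups, the 3 PCB126 doses and Cd 12 ug/L (0.609 for the sum and 1.84 CPM alone, n = 4), and above it at Cd 2.4 ug/L, at Cd 24 ug/L (1.80 for the sum and 0.647 CPM alone) and in control. Cd 2.4 ug/L and control hold the divergent pair, which is low in both measures and widens these SDs. Without it the sum was 15.6 to 24.1 CPM at Cd 2.4 ug/L, against 10.7 to 21.5 CPM for arntl1b alone. In control it was then 16.8 to 21.8 CPM, against 11.7 to 19.0 CPM alone. No comparison gained or lost a called gene by the sum, an addition made after the data were seen. arntl2 (ENSDARG00000041381, chr18:15569627-15610856), a Bmal2 gene, was listed with 0 counts in all 28 libraries, and 3 counts over their 419369120 counts would be 0.00715 CPM. How reads that match more than 1 locus were counted is not given in the sources used here.

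**Figure D3:**
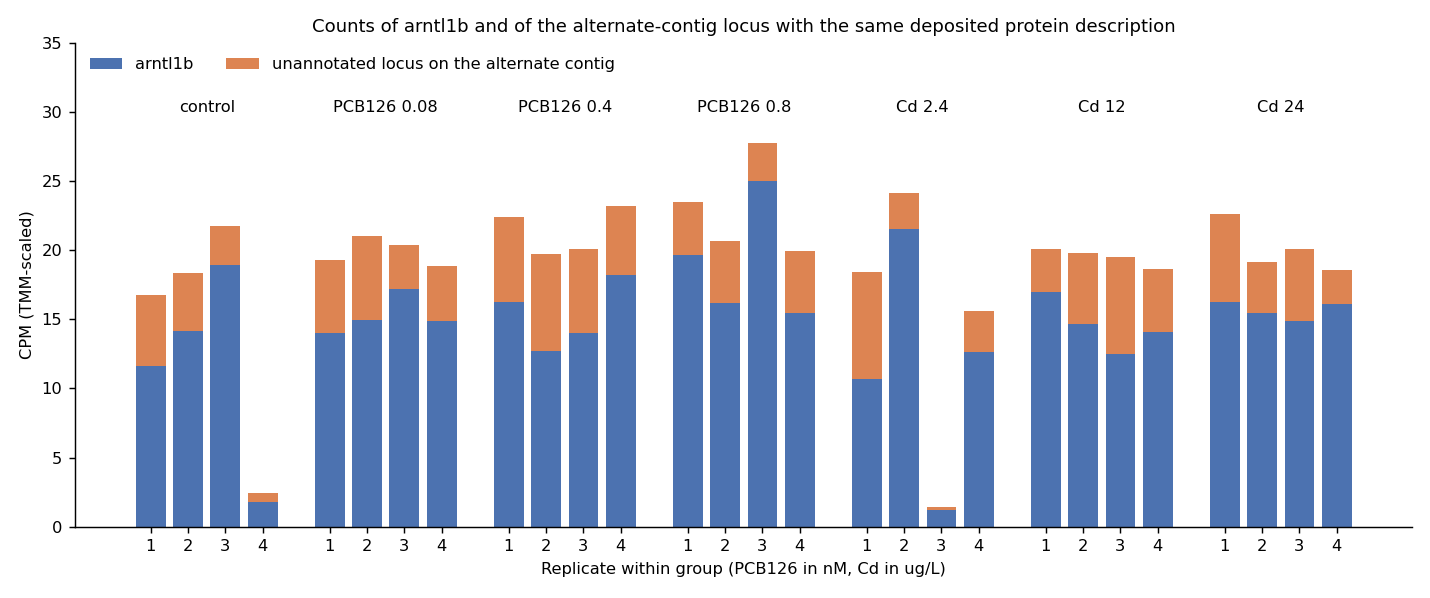
Stacked CPM (TMM-scaled, vertical axis from 0) of arntl1b and of the unannotated alternate-contig locus in each of 28 libraries, by group and replicate. The share of the second locus runs from 9.85% to 41.8%, and the sum is low in control replicate 4 and Cd 2.4 ug/L replicate 3.

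In the negative limb, nr1d2a (ENSDARG00000003820, chr16:50089417-50111057), a Rev-erb beta repressor gene, separated the PCB126 from the Cd larvae. The 12 PCB126 libraries had 148 to 218 CPM (median 185), against 219 to 252 CPM (median 246) in the 11 Cd libraries outside the pair and 170.1 CPM in Cd 2.4 ug/L replicate 3. Every PCB126 library was below every Cd library other than that one, by a narrow margin (218.0 CPM at most, against 219.5 CPM at least). How many of all tested genes separate in this way was not counted. Averaged over 3 doses each, nr1d2a was lower in PCB126 than in Cd larvae by a log2 fold change of -0.34 ± 0.07 (SE, adjusted p = 0.00287, edgeR), and without the pair -0.38 ± 0.04 (adjusted p = 5.13e-07). It was the 1 called gene of the 9, where 2.43% of all tested genes were called, and it stayed called with each of the 24 libraries left out in turn (adjusted p 0.000158 to 0.00825). It was not called by limma on log2(TPM + 1), at -0.27 (adjusted p = 0.720).

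In edgeR, whether nr1d2a was called against control depended on the pair of libraries. At PCB126 0.8 nM it had 169, 181, 177 and 148 CPM, against 249, 241, 226 and 169 CPM in control. Control replicate 4 thus sat among the exposed libraries and the other 3 controls lay above them. The log2 fold change was -0.39 ± 0.12 (SE, adjusted p = 0.0613, edgeR), and -0.50 ± 0.07 without the pair (adjusted p = 5.44e-05). At 0.08 nM nr1d2a had 176, 178, 217 and 205 CPM, with a log2 fold change of -0.19 ± 0.12 (adjusted p = 0.638) and without the pair -0.29 ± 0.07 (adjusted p = 0.0176). At 0.4 nM it had 188, 189.9, 218 and 189.6 CPM, with -0.17 ± 0.12 (adjusted p = 0.590) and without the pair -0.27 ± 0.07 (adjusted p = 0.0386). In these 2 groups too every library was below the 3 high controls. nr1d2a was not called there with any 1 of the 8 compared libraries left out, control replicate 4 included. The adjusted p in edgeR was then 0.272 to 0.832 at 0.08 nM and 0.324 to 0.724 at 0.4 nM. At 0.8 nM leaving out control replicate 4 alone was enough for a call (adjusted p = 0.00448, edgeR). At Cd 24 ug/L the log2 fold change was 0.13 (interval -0.11 to 0.36), and 0.02 without the pair (interval -0.13 to 0.17).

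per3 (ENSDARG00000010519, chr11:39959039-40021080), a Period gene, rose at the highest PCB126 dose. It had 199, 189.8, 184 and 148 CPM at PCB126 0.8 nM, against 143, 143, 119 and 78.9 CPM in control. The groups did not overlap, with 148 CPM as the lowest exposed and 143 CPM as the highest control value. How many of all tested genes do the same was not counted. The log2 fold change was 0.58 ± 0.16 (SE, adjusted p = 0.0415, edgeR), and 0.42 ± 0.11 without the pair (adjusted p = 0.0134). per3 was the 1 called gene of the 9, where 3.49% of all tested genes were called. The call was lost when control replicate 3 or 4, or PCB126 0.8 nM replicate 1, 2 or 3, was left out (adjusted p 0.0276 to 0.135 over the 8 omissions). It was also lost by edgeR with no filter on low counts (adjusted p = 0.0633) or with only these groups in the model (adjusted p = 0.413), and by limma on log2(TPM + 1) (adjusted p = 0.202), and it was kept by DESeq2 (adjusted p = 0.0201). At 0.4 nM per3 had 160.2, 143, 164 and 149.6 CPM (log2 fold change 0.35 ± 0.16, adjusted p = 0.415), and at 0.08 nM 127, 150.2, 132 and 124 CPM (0.14 ± 0.16, adjusted p = 0.814). PCB126 0.8 nM against 0.08 nM gave 0.43 ± 0.16 (adjusted p = 0.276, edgeR) and was called without the pair (0.43 ± 0.10, adjusted p = 0.00662). In the Cd groups per3 had 81.6 to 139, 124 to 181 and 134 to 159 CPM at 2.4, 12 and 24 ug/L. The lowest of these was the library of the pair, and none of these groups was called against control.

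per1a (ENSDARG00000056885, chr10:22809715-22831611), another Period gene, had 62.2, 61.7, 57.4 and 49.9 CPM at PCB126 0.08 nM and 63.9, 61.3, 62.0 and 48.9 CPM at 0.8 nM, against 75.1, 75.5, 72.2 and 36.4 CPM in control. The libraries of these 2 groups lay between the 3 high controls and the fourth. At 0.4 nM per1a had 69.0, 50.9, 73.3 and 68.1 CPM, values that overlap the 3 high controls. It was not called at that dose with or without the pair. At 0.08 nM the log2 fold change was -0.17 ± 0.21 (SE, adjusted p = 0.835, edgeR), and -0.36 ± 0.11 without the pair (adjusted p = 0.0493). At 0.8 nM it was -0.14 ± 0.21 (adjusted p = 0.780), and -0.33 ± 0.11 without the pair (adjusted p = 0.0660). At 0.08 nM per1a was not called with any 1 of the 8 compared libraries left out (adjusted p 0.502 to 0.939, edgeR). Over 3 doses each, PCB126 against Cd gave -0.22 ± 0.12 (adjusted p = 0.577), and -0.29 ± 0.06 without the pair (adjusted p = 0.00293), with 9 of 12 PCB126 libraries below the lowest of the 11 Cd libraries.

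per1b (ENSDARG00000012499, chr7:50822465-50847296), the most abundant Period gene of the 3, and nr1d1 (ENSDARG00000033160, chr3:23488652-23496223), a Rev-erb alpha repressor gene, were called in no comparison with or without the pair. per1b had 274, 262, 275 and 252 CPM at PCB126 0.8 nM and 270.4, 283, 277 and 263 CPM at Cd 24 ug/L, against 252, 259.8, 252 and 139 CPM in control. Without the pair its log2 fold change was 0.06 (95% interval -0.04 to 0.17) at PCB126 0.8 nM and 0.11 (interval 0.00 to 0.21, adjusted p = 0.257, edgeR) at Cd 24 ug/L. nr1d1 had 218, 218, 215 and 208 CPM at PCB126 0.8 nM, against 242, 227, 234 and 187 CPM in control. Its log2 fold change there was -0.05 (interval -0.23 to 0.13), and -0.12 without the pair (interval -0.25 to 0.01, adjusted p = 0.265, edgeR).

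**Figure D4:**
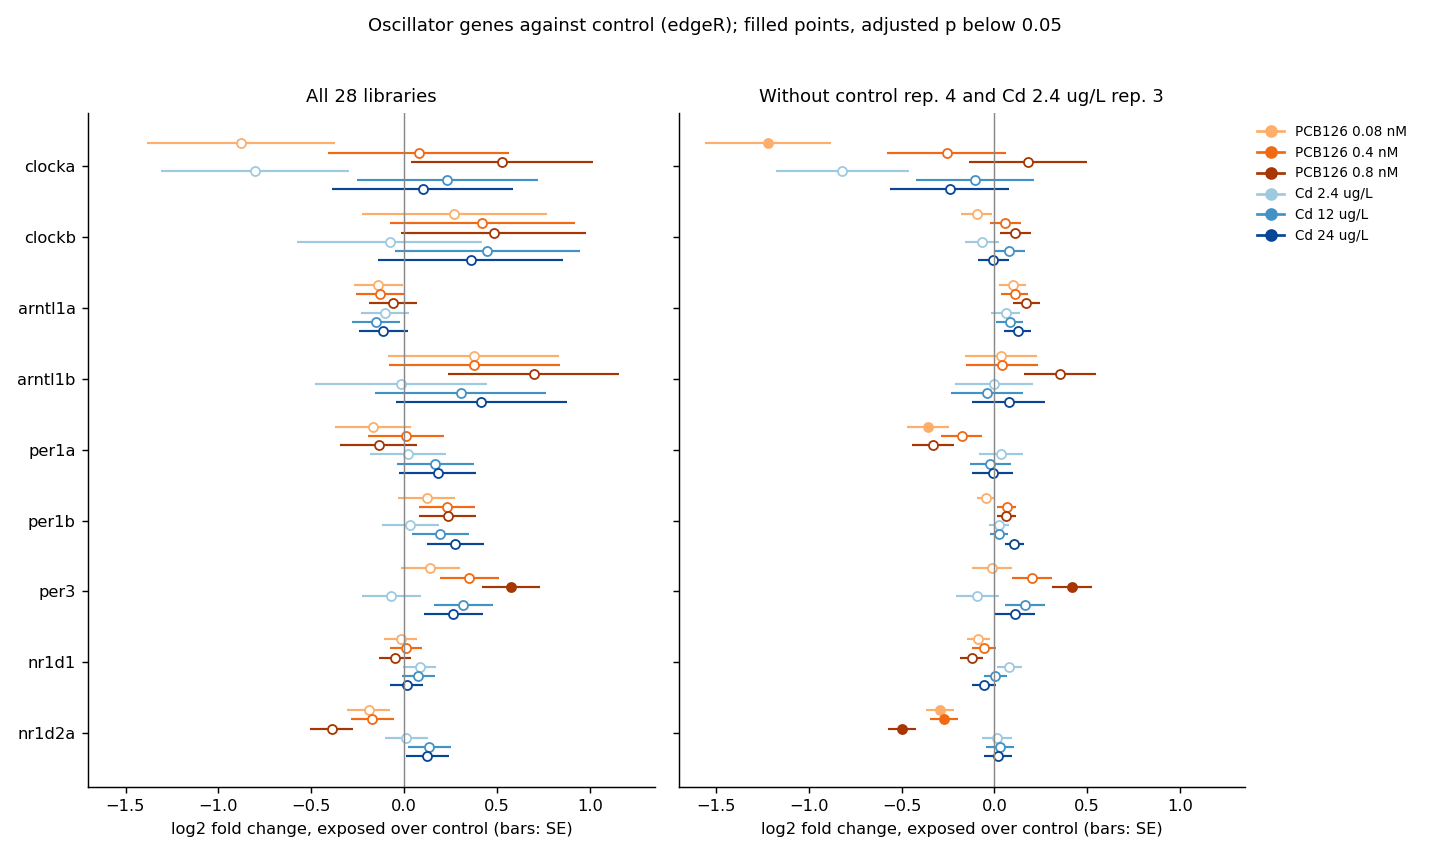
Log2 fold change against control (horizontal axis; bars are SE) of the 9 detected oscillator genes for the 6 exposed groups, with all 28 libraries (left) and without control replicate 4 and Cd 2.4 ug/L replicate 3 (right). Filled points have an adjusted p below 0.05 in edgeR: per3 at PCB126 0.8 nM in both panels, and clocka and per1a at 0.08 nM and nr1d2a at all 3 PCB126 doses in the right panel.

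Counted over the 9 tested genes, the Cd comparisons called none. At 2.4, 12 and 24 ug/L against control, edgeR called 0 of 9, with 0 at an unadjusted p below 0.05 each time, where 0.0394%, 0.173% and 0.922% of all tested genes were called. Neither DESeq2 nor limma on TPM called any of them, and neither gave an unadjusted p below 0.05. Without the pair the count stayed at 0 of 9 in each, against 0.133%, 0.797% and 5.08% of all genes, with 1, 0 and 1 at an unadjusted p below 0.05, and the 27 log2 fold changes ran from -0.82 to 0.17. Cd 24 ug/L against 2.4 ug/L also called 0 of 9 (1 unadjusted, per3), where 0.52% of all genes were called, and 0 by DESeq2 and by limma (1 unadjusted each). Without the pair it called 0 of 9 (1 unadjusted), against 3.79%.

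For PCB126 the counts were low with all libraries and larger without the pair. At 0.08 and 0.4 nM against control, edgeR called 0 of 9 (0 and 1 unadjusted), where 0.386% and 1% of all genes were called, and DESeq2 and limma on TPM also called 0 (DESeq2 0 and 1 unadjusted, limma 0 and 0). Without the pair 3 of 9 were called at 0.08 nM and 1 of 9 at 0.4 nM, all lower, against 7.83% and 3.57% of all genes. At 0.8 nM the count was 1 of 9 with the pair, and 2 of 9 without it, against 8.73% of all genes. With all libraries at this dose, limma on TPM called 0 (1 unadjusted) and DESeq2 called 2, per3 and nr1d2a. PCB126 0.8 nM against 0.08 nM called 0 of 9 (2 unadjusted, clocka and per3), where 1.02% of all genes were called, and 0 by DESeq2 (2 unadjusted) and by limma (1 unadjusted), and 2 of 9 without the pair, against 11%. PCB126 against Cd called 2 of 9 without the pair, against 8.02% of all genes.

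Genes of 1 limb differed in direction. At PCB126 0.8 nM the median log2 fold change was 0.50 for the 4 positive-limb genes and -0.05 for the 5 negative-limb genes, against -0.01 for all tested genes. Without the pair these medians were 0.18 and -0.12, against -0.01, and all 4 positive-limb genes had a positive value, though none was called. Within the negative limb, per3 and nr1d2a had opposite signs, at 0.58 and -0.39. At Cd 24 ug/L the medians were 0.23 and 0.18 with the pair, and 0.04 and 0.02 without it, against -0.02 and 0.00 for all genes.

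A limb score per library, the mean over a limb of log2 CPM centred on each gene's mean of the 7 groups, put the 2 limbs side by side. The positive minus the negative score was 0.52, 0.34, 0.47 and 0.40 at PCB126 0.8 nM, against 0.06, 0.10, 0.26 and -1.35 in control. All 4 libraries at 0.8 nM were above all 4 controls, a description without a test. The positive score gives clocka, which moved with the gene length of the library, the same weight as its other genes. At 0.08 nM the positive minus the negative score was -0.16 to 0.23, and at 0.4 nM 0.05 to 0.39. Over the 11 Cd libraries outside the pair it was -0.17 to 0.22. The pair had positive scores of -2.46 in Cd 2.4 ug/L replicate 3 and -1.96 in control replicate 4, and negative scores of -0.58 and -0.61.

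**Figure D5:**
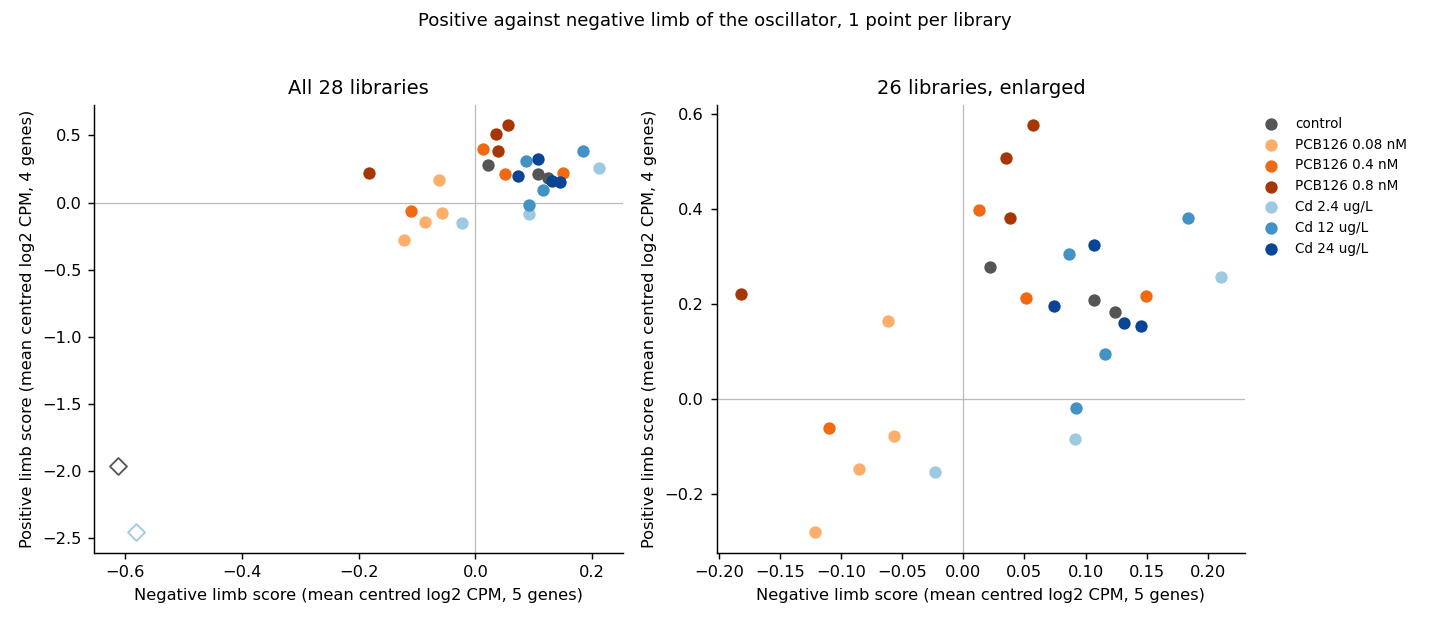
Positive-limb score (mean centred log2 CPM of 4 genes, vertical axis) against negative-limb score (5 genes, horizontal axis), 1 point per library, for all 28 libraries (left) and enlarged without control replicate 4 and Cd 2.4 ug/L replicate 3 (right; these are the open diamonds on the left). The PCB126 0.8 nM libraries have positive scores of 0.22 to 0.58, overlapping the 0.18 to 0.28 of the controls outside the pair. The pair lies at -2.46 (Cd 2.4 ug/L replicate 3) and -1.96 (control replicate 4). Scores are centred on group means that include the pair.

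A further 63 clock gene symbols were sought in 7 lists. The lists were cryptochromes with per2, nuclear receptors of the second loop, relatives of Clock and Arntl, and PAR bZIP and E4BP4 outputs. The others were E-box repressors, kinases and ubiquitin ligases, and melatonin synthesis. Some symbols were other names of members, such as bmal1a for arntl1a. Of the 63, 47 had an entry in the deposited counts. The 39 that were tested held none of the relatives of Clock and Arntl. At PCB126 0.08, 0.4 and 0.8 nM, 5, 5 and 8 of the 39 rose with none lower, where 0.386%, 1% and 3.49% of all tested genes were called in either direction. At Cd 2.4, 12 and 24 ug/L, 3, 4 and 5 rose with none lower, where 0.0394%, 0.173% and 0.922% of all were called. Without the pair 11, 11 and 14 rose and 1, 0 and 2 fell at the PCB126 doses, where 7.83%, 3.57% and 8.73% of all were called, and 5, 7 and 8 rose with none lower at the Cd doses, where 0.133%, 0.797% and 5.08% of all were called. At 0.8 nM the 8 were per2, cry1bb, cry1aa, cry1ab, cry2, rorcb, tefa and bhlhe40, of which cry1ab and cry2 are named here after their values were seen. per2, a light-induced Period gene, averaged 215 ± 8.72, 262 ± 3.90 and 296 ± 12.1 CPM at 0.08, 0.4 and 0.8 nM PCB126 and 82.4 ± 21.4, 139 ± 14.9 and 188 ± 7.71 CPM at 2.4, 12 and 24 ug/L Cd, against 26.6 ± 1.67 CPM in control (SD, n = 4 each). Whether the time or order of collection has a part in these levels was not tested.

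The cryptochrome genes made up 4 of the 8 called at PCB126 0.8 nM. Another cryptochrome gene, cry1ba, was tested but not called there (39.0 ± 5.69 CPM, against 27.3 ± 17.0 CPM in control, SD). cry1bb had a log2 fold change of 1.66 ± 0.08 and cry1aa of 1.05 ± 0.06 at PCB126 0.8 nM, and 1.14 ± 0.08 and 0.72 ± 0.06 at Cd 24 ug/L (SE, all called by edgeR). tefa, a PAR bZIP activator of clock output genes, rose by 1.09 ± 0.17 at PCB126 0.8 nM, with 88.4 to 116 CPM, against 46.1 to 57.5 CPM in control. rorcb, a Ror activator gene, rose by 0.43 ± 0.09 there and by 0.39 ± 0.09 at Cd 24 ug/L, and bhlhe40, an E-box repressor gene also known as Dec1 in mammals, rose by 0.34 ± 0.08 at PCB126 0.8 nM. Between doses, per2, cry1bb and cry1aa rose at Cd 24 over 2.4 ug/L, and per2 rose at PCB126 0.8 over 0.08 nM (0.46 ± 0.11). In PCB126 against Cd larvae per2, cry1bb, cry1aa and tefa were higher and dbpb, another PAR bZIP gene, was lower (-0.29 ± 0.07), while no oscillator gene other than nr1d2a was called with all 28 libraries.

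Genes whose level followed that of the most abundant member of a limb were sought by Spearman's rho of log2 CPM over 28 libraries, as a description. In CPM, clockb led the positive limb, and its 5 nearest genes were gramd4a (0.91), zmiz2 (0.90), erbin (0.89), macf1a (0.89) and neurl1aa (0.87). The same 5 genes were nearest over the 26 libraries without the pair, at 0.84 to 0.89. per1b led the negative limb, and its 4 nearest were a locus without a name (0.81), ppp2r3a (0.79), stk35 (0.79) and crfb15 (0.79), again the same 4 without the pair, at 0.74 to 0.76. The points are the same libraries for every gene, and they differ in depth and makeup as given above. Within groups, without the pair, per1a and per3 had their highest library in common in 6 of 7 groups and their lowest in 6 of 7, and clocka and per3 in 5 and 6 of 7, out of 36 gene pairs counted after the data were seen.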

How the data were processed

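Polyadenylated RNA of whole larvae was sequenced in 28 libraries. The deposited table holds raw counts per gene, and the submitters' processing notes name HISAT2 2.0.5, featureCounts 1.5.0-p3 and the build GRCz11. The annotation release is not given in the sources used here, and per the labels' protocols strandedness is ambiguous, so reads of overlapping antisense genes cannot be told apart. TPM is the authors' deposited table, which was recomputed from counts and lengths (largest relative difference 5.33e-15). Gene length in bases is another deposited column. Counts of 6417 loci with no Ensembl identifier made up 7.71% of the total.

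The tests used edgeR 4.0.16 (R 4.3.3) with filterByExpr on the groups, TMM scaling, estimateDisp, glmQLFit, glmQLFTest, two-sided, as 1 model for 28 libraries with 21 residual degrees of freedom, adjusted over 25393 genes. CPM is scaled by TMM, log2 CPM for limb scores and rho has a prior count of 2, SE is the absolute log2 fold change over the square root of F, and intervals are 95%. There were 9 comparisons: the 6 exposed groups with control, the highest against lowest dose of each chemical, and the mean of 3 PCB126 doses against that of 3 Cd doses. The limb scores and rho have no test. Counts for PCB126 0.8 nM against control were simulated over 25205 genes. Of 100 genes changed by 1 on the log2 scale 66% were recovered, and of 100 changed by 2, 97%, with 9 false calls. Changes were placed only in genes above a floor of mean CPM, and no library was given a divergent makeup. No smaller change was simulated, so recovery of changes as small as those of per3 and nr1d2a was not measured.

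Alternatives were DESeq2 1.42.0 (its Wald test, and its size factors in edgeR), no filter, a mean of at least 10 counts, limma 3.58.1 on log2(TPM + 1), a model of the compared groups alone, a block for replicate number, each library left out, and the pair left out. The arntl1b sum was added after the data were seen. Same-numbered libraries of different groups had correlations of their deviations from -0.65 to 0.59 (median -0.01). Those with other numbers had -0.72 to 0.85 (median 0.00). This check cannot exclude pairing, since deviations within a group sum to 0 and the divergent pair sways its groups.

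The members, lists and alternatives, the pair included, were chosen with earlier results of these data known. All members were named, with the 5 genes nearest by rho to the most abundant member of each limb (1 of them is not reported here) and up to 3 called genes per list and comparison. Depth is as given above, and reads carry no molecular identifiers, so limits from counts cover counting error only. No sequences are shown. Figures were drawn with matplotlib 3.10.9 in Python 3.11.15.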

Additional observations from a re-analysis of the deposited data

Results flagged for a closer look

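Each of the 9 genes in each of 7 groups gave a set of 4 values, 63 in all. In 9 of these sets 1 library lay apart from the other 3 by more than Dixon's 95% critical value. Chance marks about 1 set in 20, but the sets share libraries and are not independent. In 5 of them it was a library of the divergent pair: Cd 2.4 ug/L replicate 3 for clockb (2.76 CPM), and control replicate 4 for clocka (0.913 CPM), clockb (4.02 CPM), per1a (36.4 CPM) and per1b (139 CPM). The other 4 were among the 45 sets of groups that held no library of the pair, a share above 1 in 20 that was not tested. PCB126 0.08 nM replicate 2 had the most clockb of its group, at 54.0 CPM against 43.8 to 45.5 CPM in the other 3, and the least nr1d1, at 203 CPM against 223 to 227 CPM. PCB126 0.8 nM replicate 1, the library of lowest depth, had the most arntl1a, at 34.5 CPM against 27.6 to 28.3 CPM. PCB126 0.4 nM replicate 3 had the most nr1d2a, at 218 CPM against 188 to 189.9 CPM.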

How the results depend on the processing

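Of 169 recomputed counts of called genes over the 9 comparisons, 154 stayed within 1.5 times the count with all 28 libraries. That count was 0 in every comparison but PCB126 0.8 nM against control and PCB126 against Cd. Most of the 154 therefore compare 0 with 0 and say little about stability. Without the pair the counts were 3 at PCB126 0.08 nM, 1 at 0.4 nM and 2 at 0.8 nM against control, 2 for PCB126 0.8 against 0.08 nM and 2 for PCB126 against Cd. The count at PCB126 0.8 nM was 0 with no filter (per3 adjusted p = 0.0633), 0 with limma on TPM (0.202), 0 with only the groups compared (0.413) and 2 with DESeq2, where nr1d2a was added (adjusted p = 0.0327); with 1 library left out it was 0 to 1. Without control replicate 4 the called gene there was nr1d2a (adjusted p = 0.00448) in place of per3 (0.125). PCB126 0.8 against 0.08 nM gave 2 with only the groups compared (clocka 0.0110, per3 0.0191), and PCB126 against Cd gave 0 with limma on TPM. Limma on TPM, a scale without TMM factors, also turned 2 directions, giving log2 differences of 0.0091 for per1a at PCB126 0.08 nM and 0.055 for nr1d2a at 0.4 nM. Control replicate 4 had 5.45 TPM of per1a, against 22.1 to 23.4 TPM in the other controls. It had 45.7 TPM of nr1d2a, against 125 to 140 TPM. The cause of the turned directions was not tested. With replicate number as a block in edgeR, every count stayed as it was (per3 at 0.8 nM adjusted p = 0.0303, nr1d2a in PCB126 against Cd 0.00672). A correlation over 0.1 was seen in 17 of 84 same-numbered pairs and in 37 of 252 other-numbered pairs. Depth limits clocka most, with 6 counts in its lowest library.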

Other observations

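The paralog of nr1d2a, nr1d2b, also a Rev-erb beta gene, was not lower in the PCB126 larvae and was chosen here after its values were seen. nr1d2b averaged 297 ± 2.67, 297 ± 3.72 and 302 ± 7.64 CPM at 0.08, 0.4 and 0.8 nM PCB126, against 271 ± 10.6 CPM in control (SD, n = 4 each). Its log2 fold change at 0.8 nM was 0.16 ± 0.06 (SE, adjusted p = 0.122, edgeR), and 0.17 ± 0.04 without the pair (adjusted p = 0.00635). In PCB126 against Cd larvae it was 0.02 ± 0.03 (adjusted p = 0.946), where nr1d2a was -0.34 ± 0.07. Reads shared between these paralogs could not be checked from counts.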
